A study of Mus musculus with 2 samples.

Results

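The unfolded protein response and the integrated stress response were described here through 39 genes, chosen from a list of endoplasmic reticulum (ER) stress, ATF4 target and serine synthesis genes by their symbols in GENCODE M21. All 39 were found among the 55487 gene IDs of the count table, and 36 of them had 50 or more counts in at least 1 library. The cells were small peritoneal macrophages, sorted from the peritoneal cavity of male SWISS mice aged 5 weeks. In both groups lipopolysaccharide (LPS) of E. coli O55:B5 was given into the peritoneum at 20 mg/kg, saline at 30 mL/kg was given under the skin 6 h later, and mice were killed 22 h after LPS. The labels name no further treatment of the LPS group, called LPS alone below. The LPS+LCC-12 group, called LCC-12 below, was also given 0.3 mg/kg LCC-12, a compound known to target mitochondrial copper, into the peritoneum 6 h after LPS. Each group was 1 library of pooled cells, 102283 cells of 7 mice for LPS alone and 66967 cells of 8 mice for LCC-12, so nothing measured the spread between mice and no difference below was tested. Mice without LPS were not analysed here. The gate of the sort was not given in the sources used here.

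The unfolded protein response starts when unfolded proteins gather in the ER. Its sensors are IRE1, which splices the Xbp1 mRNA, ATF6, which is cut to release a transcription factor, and PERK, a kinase of the translation factor eIF2. The integrated stress response is the arm downstream of eIF2 phosphorylation, shared by PERK, by the amino acid sensor GCN2 and by kinases that respond to heme, mitochondrial stress and double-stranded RNA. Phosphorylation of eIF2 favours translation of the ATF4 mRNA, so that ATF4 protein can change without its mRNA. ATF4 drives genes of amino acid synthesis and transport, and together with CHOP it drives stress effectors that include inhibitors of growth. ATF6 and spliced XBP1 drive chaperones and the machinery of ER-associated degradation, which returns misfolded proteins to the cytosol. Macrophages exposed to LPS are known to use parts of this machinery for cytokine secretion.

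The libraries held 50618409 (LPS alone) and 47721888 (LCC-12) counts, of which members took 0.527% and 0.525%. Counts were scaled to library size with the TMM method of edgeR. Each log2 ratio is LCC-12 over LPS alone and is given with an exact 95% binomial interval that covers counting error only (the counting interval). CPM is counts per 1000000 of the scaled library size, and a level is CPM per kilobase of merged exons. Macrophage markers were present in both libraries: the 8 listed, among them Adgre1, Csf1r and Lyz2, summed to 7543 CPM with LPS alone and 9000 with LCC-12, and each was within 1.5-fold. Csf1r and Lyz2 were close to that limit, 1.47-fold and 1.48-fold higher, and Lyz2 gave 3049 and 4508 CPM of the sums. Of the 8 log2 ratios, 4 were above 0 and 4 below. Neutrophil markers were present as well and differed: 10 of 10 had log2 ratios below 0, 7 were at least 2-fold lower, and they summed to 9271 and 3503 CPM. Plasma and B cells, the former known for a strong secretory machinery, had 12 markers: 9 were over the minimum, with 1 at least 2-fold higher and 1 lower, Tnfrsf17 was at 0 in both libraries, and they summed to 204 and 245 CPM. The higher one was Sdc1 (82 and 573 counts) and the lower one Igha (174 and 1). Under the minimum, Jchain had 36 and 3 counts and Mzb1 13 and 31. Ighm (4800 and 5090 counts) and Igkc (1796 and 2257) were within 1.5-fold. Lower sums with LCC-12 were also seen for mast cell markers (7 genes, 213 and 67.7 CPM, of which Hdc gave 197 and 62.3), mesothelial markers (6 genes, 7.65 and 1.32 CPM), fibroblast markers (6 genes, 12.4 and 3.64 CPM, with Lum at 0 in both) and T and NK cell markers (6 genes, 4.97 and 2.38 CPM). Of 5 endothelial markers, Pecam1, which other cells also express, had 127 and 59.3 CPM, whereas Cdh5, Tie1, Kdr and Emcn were few and had more counts with LCC-12 (33 and 62 counts of Cdh5). The 8 markers of large peritoneal macrophages had higher sums (354 and 1071 CPM), as did the 8 of small peritoneal macrophages (539 and 908 CPM). Of the large macrophage markers, 6 were at least 2-fold higher, led by Cd5l (466 and 10022 counts) and Timd4 (318 and 5056). Gata6 was within 1.5-fold, and Selp was slightly lower (log2 ratio -0.24). Of the small macrophage markers, 7 were at least 2-fold higher, and Ccr2 was level (365 and 360 CPM). Of all genes over the minimum, 4.01% were at least 2-fold higher and 6.65% lower. In bulk RNA, fewer cells of a type and less RNA per cell cannot be told apart, and the part of these cells in the differences below was not tested.

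**Figure D1:**
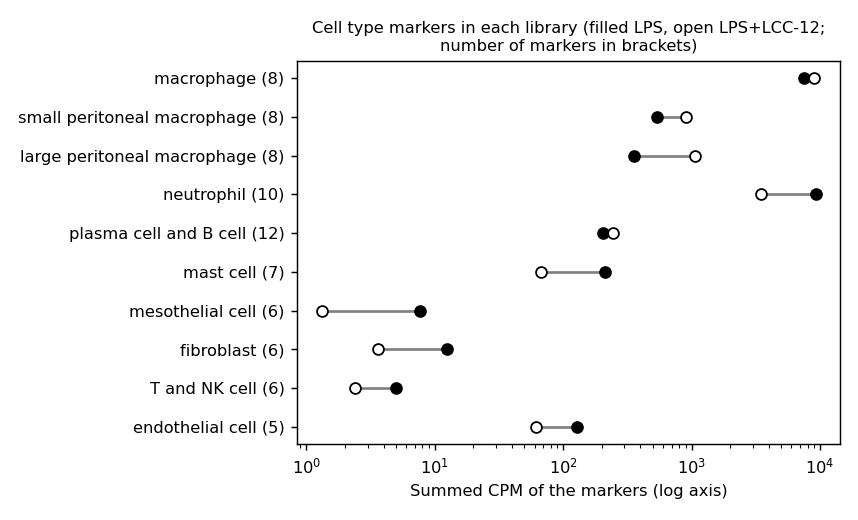
Summed CPM of the cell type markers on a log axis, 1 filled point for the LPS library and 1 open point for the LCC-12 library in each of 10 lists. Neutrophil markers were the largest sum with LPS, at 9271 CPM, and were 3503 with LCC-12, whereas macrophage markers were 7543 and 9000.

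Several effectors of the integrated stress response, led by Stc2, Vldlr and Ddit3, were lower in the LCC-12 library, whereas the abundant ER folding genes were close to level and Phgdh was higher. Of the 36 members over the minimum, 8 were at least 1.5-fold lower with LCC-12 (22.2%), where 13.3% of all 13482 genes over that minimum were, and 9.85% of the protein-coding ones, to which all 39 members belong. This gap depends on the count minimum: with a minimum of 10 counts, 23.1% of members and 20.3% of all genes were lower by 1.5-fold, with a minimum of 1 count 23.1% and 30.4%, and with a minimum of 200 counts 22.2% and 9.48%. With a minimum of 50 the 8 were Stc2, Vldlr, Ddit3, Ddit4, Trib3, Sesn2, Asns and Atf5. Only 1 member, Phgdh, was at least 1.5-fold higher (2.78%, against 9.67% of all genes). At the 2-fold limit, Stc2 and Vldlr were lower (5.56%, against 6.65% of all genes) and Phgdh was higher (2.78%, against 4.01%), so these shares were near or below the background. The median log2 ratio was -0.03 over the 36 members and 0.02 over all genes, and the members' median changed sign when libraries were scaled by total counts (0.01). Counting intervals lay wholly above 0 for 12 members and wholly below 0 for 16, and they spanned 0 for 8. Of all 13482 genes over the minimum, these numbers were 4915, 4430 and 4137, so an interval that leaves out 0 was common at this depth.

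**Figure D2:**
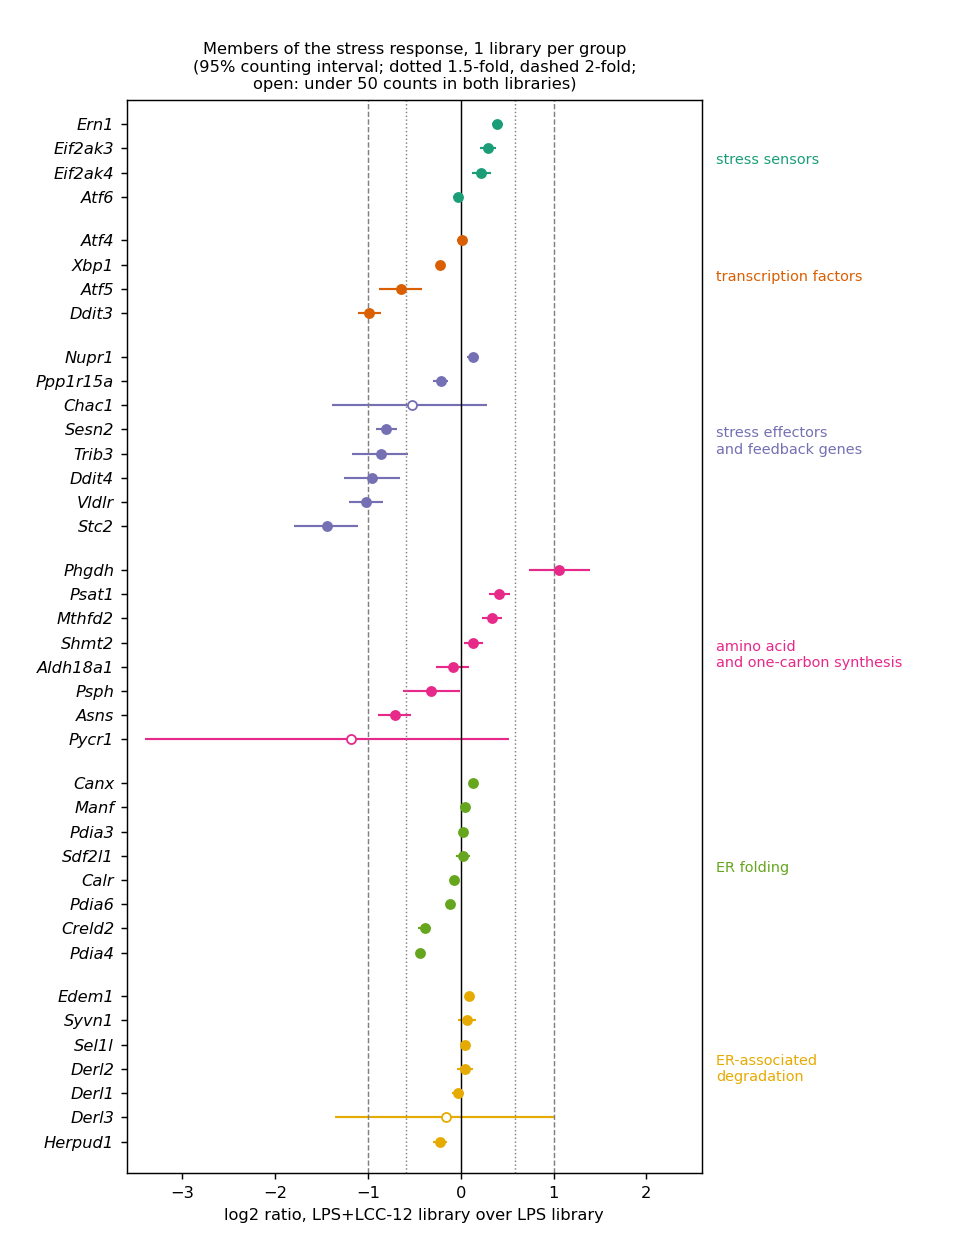
Log2 ratio of each of the 39 members by role, with 95% counting intervals; vertical lines mark 1.5-fold and 2-fold, and open points mark the 3 genes with under 50 counts in both libraries. Of the stress effectors over the minimum, 5 of 7 lie left of the lower 1.5-fold line, and the ER folding and degradation genes lie between -0.44 and 0.13.

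Promoter letters are shown first because the members are known as targets of factors that read different DNA elements. RefSeq promoter sequences (GRCm38.p6) were found for 36 members, with 41 starts. The 250 bases before each start were searched on both strands for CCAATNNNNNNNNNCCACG, the ER stress response element (ERSE) read by ATF6 and XBP1, for ATTGGNCCACG, the related ERSE-II, for TGATGNAA, a form of the composite element of ATF4 and its C/EBP partners (CARE), and for TGACGTGG, a core of the unfolded protein response element. The first was in 37 of 32851 promoters of all genes (0.113%) and in those of 6 members: Calr, Canx, Creld2 and Pdia6 of the folding genes, and Derl3 and Syvn1 of the degradation genes. ERSE-II was in 10 promoters of all genes (0.0304%) and in 1 member, Herpud1. CARE was in 1134 promoters (3.45%) and in 6 members, Asns, Chac1, Herpud1, Nupr1, Pycr1 and Vldlr. The core of the unfolded protein response element was in 185 promoters (0.563%) and in no member. A match is a description of letters and not a measured binding site. Letters that run past the start were not searched. The ERSE matches follow, written 5′ to 3′ along the motif, with the match in capitals:
Calr, chr8:84847070-84847098, plus strand: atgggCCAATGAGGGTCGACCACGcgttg
Canx, chr11:50325795-50325823, minus strand: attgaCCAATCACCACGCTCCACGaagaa
Creld2, chr15:88819515-88819543, minus strand: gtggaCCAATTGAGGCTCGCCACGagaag
Pdia6, chr12:17266486-17266514, plus strand: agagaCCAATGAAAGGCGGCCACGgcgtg
Syvn1, chr19:6046527-6046555, plus strand: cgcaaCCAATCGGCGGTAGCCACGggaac
Derl3, chr10:75893237-75893265, minus strand: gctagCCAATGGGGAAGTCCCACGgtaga

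The CARE matches, again along the motif and in capitals, lay between 16 and 200 bases before a RefSeq start. For Vldlr and Nupr1 that start is an internal one, so the match lies inside the gene as GENCODE annotates it. The Vldlr window before the first start held no match, and the Asns match also lies within the GENCODE gene, whose start is farther out:
Asns, chr6:7693214-7693243, minus strand: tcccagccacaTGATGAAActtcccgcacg
Vldlr, chr19:27216809-27216838, minus strand: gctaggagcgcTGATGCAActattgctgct
Herpud1, chr8:94386306-94386335, minus strand: ggggtgcgggcTGATGCAAcccgccgtggt
Nupr1, chr7:126625562-126625591, plus strand: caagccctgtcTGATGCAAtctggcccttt
Chac1, chr2:119351038-119351067, minus strand: cctggcaggagTGATGCAAcggcagggaag
Pycr1, chr11:120643833-120643862, minus strand: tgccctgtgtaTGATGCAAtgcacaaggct

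Herpud1, an ER membrane protein that assembles the degradation complex, held both a CARE and an ERSE-II match. Its window also ends in all letters of an ERSE but the last, and the next base was not searched. The 250 bases before its start, chr8:94386179-94386428 on the plus strand, are shown with the CARE (first, on the other strand) and ERSE-II matches in capitals because it was the only member with elements of both kinds:
Herpud1: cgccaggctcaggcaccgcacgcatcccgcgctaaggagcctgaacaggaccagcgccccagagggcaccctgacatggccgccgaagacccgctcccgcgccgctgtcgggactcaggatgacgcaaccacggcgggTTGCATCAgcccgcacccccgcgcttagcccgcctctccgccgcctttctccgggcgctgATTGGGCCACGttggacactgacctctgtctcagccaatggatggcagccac

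The 5 members with an ERSE match and 50 or more counts had log2 ratios from -0.39 to 0.13 with a median of -0.08. The 4 such members with a CARE match ran from -1.02 to 0.13 with a median of -0.47. Vldlr and Asns were the lower pair among those 4, and Herpud1 and Nupr1 were within 1.5-fold. Of the 8 members lower by 1.5-fold, Ddit3, Trib3, Sesn2, Stc2, Ddit4 and Atf5 held none of these letters in the window, which says nothing of elements elsewhere.

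The sensor genes among the members were slightly higher or level. Ern1, which encodes IRE1 (chromosome 11, 106394650 to 106487852, GRCm38), had 3981 counts with LPS alone and 5068 with LCC-12, levels of 9.75 and 12.8 CPM per kilobase. Its log2 ratio was 0.39 (counting interval 0.33 to 0.45), the largest of the 4 sensors. Atf6 had 5477 and 5206 counts, levels of 11.9 and 11.7, and its log2 ratio of -0.03 (-0.08 to 0.03) was within counting error. The eIF2 kinase genes among the members, Eif2ak3 and Eif2ak4, were both above 0. Outside the members, the kinase genes Eif2ak1 and Eif2ak2, described further below, had log2 ratios of 0.08 and -0.90. Eif2ak3, which encodes PERK, had 1910 and 2269 counts (log2 ratio 0.29, 0.21 to 0.38). Eif2ak4, which encodes GCN2, had 1435 and 1620 (0.22, 0.12 to 0.32). The median of the 4 sensor genes among the members was 0.26, and none of them was 1.5-fold apart.

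Among the transcription factors, Atf4 was level and Xbp1 slightly lower, whereas Ddit3 and Atf5 were at least 1.5-fold lower. Atf4 had 6990 and 6818 counts, levels of 59.4 and 59.8 CPM per kilobase, with a log2 ratio of 0.01 (-0.04 to 0.06). Xbp1 had 8939 and 7412 counts, levels of 55.1 and 47.2 (log2 ratio -0.22, -0.27 to -0.18). Gene counts do not separate its spliced from its unspliced mRNA, so IRE1 activity was not measured here. Ddit3, which encodes CHOP, a factor that promotes apoptosis in prolonged stress (chromosome 10, 127290774 to 127296288), had 1663 counts with LPS alone and 814 with LCC-12. Its level was 19.4 and 9.82 CPM per kilobase, 1.98-fold lower with LCC-12 (log2 ratio -0.98, -1.11 to -0.86). Within each library, which needs no scaling between them, there were 23.8 counts of Ddit3 per 100 counts of Atf4 with LPS alone and 11.9 with LCC-12. Atf5, a relative of ATF4 that is tied to mitochondrial stress, had 414 and 256 counts, 1.57-fold lower (log2 ratio -0.65, -0.88 to -0.42).

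Of the 39 members, 18 overlap another annotated gene, and 13 overlap a gene on the opposite strand. Manf, described below, overlaps Rbm15b on the same strand (1328 and 1396 counts) and Dcaf1 on the opposite strand (1125 and 1204 counts). Ddit3 overlaps the methionyl-tRNA synthetase gene (Mars) on the opposite strand, which had 1727 and 1852 counts and was therefore not lower. Atf5 overlaps Nup62 (1514 and 1678 counts) and Il4i1 (813 and 545 counts) on the opposite strand. Whether counting used strand was not stated by the labels, so reads in such overlaps are uncertain. A second, shorter gene model named Ddit3 had 0 counts in both libraries.

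Stress effectors and feedback genes held the lowest ratios. Of the 7 over the minimum, 5 were at least 1.5-fold lower, none was 1.5-fold higher (13.3% and 9.67% of all genes were), and the median was -0.86. Stc2, which encodes stanniocalcin 2, a secreted glycoprotein induced by ER stress (chromosome 11, 31357307 to 31370074), had 271 and 96 counts. That was 2.73-fold lower with LCC-12 (log2 ratio -1.45, -1.80 to -1.11), the largest difference of any member over the minimum. Vldlr, a lipoprotein receptor gene known as an ATF4 target (chromosome 19, 27216484 to 27254231), had 802 and 383 counts, 2.03-fold lower (log2 ratio -1.02, -1.20 to -0.84). The counting interval of Vldlr crossed the 2-fold limit, whereas that of Stc2 lay wholly beyond it.

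Ddit4, Sesn2 and Trib3 were the other effectors past 1.5-fold. Ddit4, which encodes REDD1, an inhibitor of mTORC1, had 276 and 138 counts (log2 ratio -0.95, -1.26 to -0.65). Sesn2, a sestrin that restrains mTORC1 when leucine is short, had 1767 and 981 counts (log2 ratio -0.80, -0.92 to -0.69). Sesn2 was the most abundant of the lower effectors, at 10.2 and 5.84 CPM per kilobase. Trib3, a pseudokinase that dampens ATF4 and CHOP activity, had 267 and 142 counts (log2 ratio -0.86, -1.17 to -0.57). Per 100 counts of Atf4, Trib3 had 3.82 and 2.08 counts and Stc2 3.88 and 1.41.

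The other effectors did not differ by 1.5-fold. Ppp1r15a, which encodes GADD34, the subunit that directs a phosphatase to eIF2, had 2596 and 2166 counts, levels of 17.7 and 15.2 CPM per kilobase (log2 ratio -0.22, -0.30 to -0.13). Nupr1, a small chromatin-associated stress protein and the effector gene of highest level at 32.9 CPM per kilobase with LPS alone, had 4128 and 4383 counts (0.13, 0.07 to 0.19). Chac1, a glutathione-degrading enzyme that is a sensitive readout of ATF4 in many cells, had only 33 and 22 counts, and its interval from -1.39 to 0.28 does not show a direction at this depth.

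**Figure D3:**
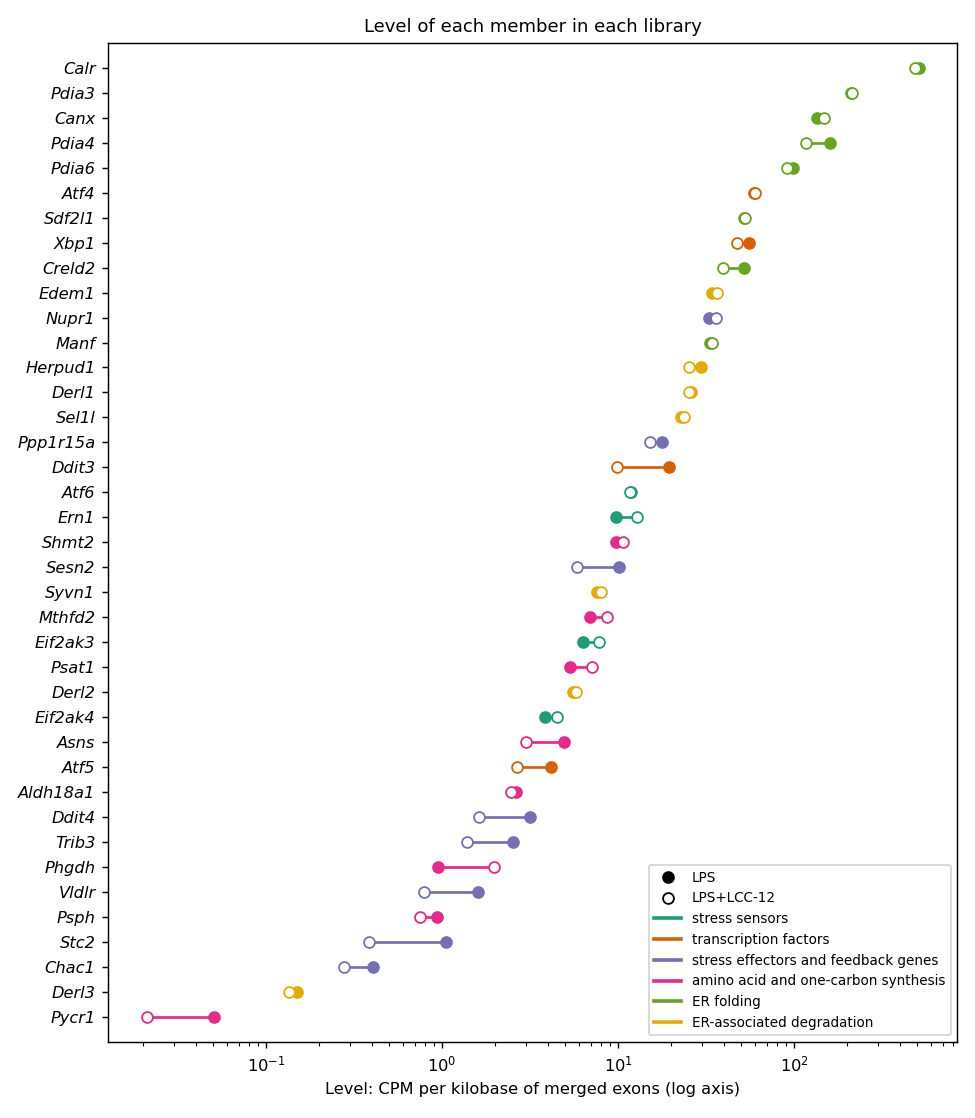
Level of each member in CPM per kilobase of merged exons on a log axis, filled for LPS and open for LCC-12, ordered by mean level and coloured by role. Folding genes fill the top with Calr at 511 and 484, and the widest gaps among genes over the minimum, Stc2, Phgdh, Vldlr and Ddit3, lie in the middle and lower part.

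Enzymes of amino acid and one-carbon synthesis differed in direction. Asns, asparagine synthetase and a classic target of ATF4 in amino acid shortage, had 675 and 399 counts, 1.64-fold lower (log2 ratio -0.71, -0.89 to -0.53). Phgdh, the enzyme that commits a glycolytic intermediate to serine synthesis (chromosome 3, 98313170 to 98339990), had 117 and 237 counts. That was 2.09-fold higher with LCC-12 (log2 ratio 1.06, 0.74 to 1.40), and its interval crossed the 2-fold limit. A processed pseudogene of it, Phgdh-ps1, had 1 and 11 counts. Psat1, the next step, had 1134 and 1462 counts (log2 ratio 0.41, 0.30 to 0.53). Psph, the last step, had 202 and 157 counts (-0.32, -0.63 to -0.01) and overlaps Cct6a on the opposite strand, which had 5674 and 6543 counts. Phgdh had the lowest count of the serine enzymes with LPS alone, at 10.3 per 100 counts of Psat1, and 16.2 with LCC-12.

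Mthfd2 and Shmt2, mitochondrial enzymes that pass the carbon of serine to folate, were within 1.5-fold. Mthfd2 had 1201 and 1468 counts, levels of 6.90 and 8.70 (log2 ratio 0.34, 0.22 to 0.45). Shmt2, the gene of highest level in this group at 9.74 and 10.7 CPM per kilobase, had 1513 and 1610 (0.14, 0.03 to 0.24). Of the mitochondrial folate enzymes outside the members, Mthfd1l had 2793 and 2775 counts (0.04, -0.04 to 0.11) and Mthfd2l 183 and 205 (0.21, -0.08 to 0.51). Aldh18a1, the first enzyme of proline synthesis, had 532 and 485 counts, a difference within counting error (-0.09, -0.27 to 0.09). Pycr1, the last enzyme of proline synthesis, had 10 and 4 counts and could not be read. Over the 7 enzymes above the minimum the median was 0.14, with 4 above 0 and 1 past 1.5-fold in each direction.

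Genes of ER protein folding were the most abundant members and stood close to level. They summed to 3763 CPM with LPS alone and 3616 with LCC-12, and Calr alone was 27.5% and 26.9% of the CPM of all members. Calr, calreticulin, the lectin chaperone of glycoproteins, had 73499 and 67460 counts, levels of 511 and 484 CPM per kilobase (log2 ratio -0.08, -0.09 to -0.06). Its membrane-bound partner Canx, calnexin, had 31645 and 33586 (0.13, 0.11 to 0.15). The disulfide isomerase gene Pdia3, whose product works with both, had 32984 and 32505 counts, levels of 210.4 and 214 CPM per kilobase (0.03, 0.00 to 0.05). At these depths counting intervals are narrow, so an interval that leaves out 0 says little about the condition without replicates.

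The folding genes farthest from level were Pdia4 and Creld2. Pdia4, a disulfide isomerase, had 19074 and 13610 counts, 1.36-fold lower (log2 ratio -0.44, -0.47 to -0.41). There were 57.8 counts of Pdia4 per 100 of Pdia3 with LPS alone and 41.9 with LCC-12. Creld2, a secreted ER stress protein, had 3520 and 2601 counts (-0.39, -0.46 to -0.32). Pdia6, an isomerase that also acts on IRE1, had 18463 and 16479 counts (-0.12, -0.15 to -0.09). Manf, a secreted ER factor, had 5854 and 5842 counts, and Sdf2l1, a partner of the chaperone BiP, had 2883 and 2835. Their log2 ratios, 0.04 (-0.01 to 0.10) and 0.02 (-0.05 to 0.10), were within counting error.

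ER-associated degradation was the most even group, with 6 members over the minimum between -0.22 and 0.09 and a median of 0.05. Herpud1 had 3457 and 2866 counts, levels of 29.7 and 25.4 CPM per kilobase (log2 ratio -0.22, -0.30 to -0.15), the lowest of the group. Edem1, a mannosidase-like protein that marks glycoproteins for disposal, had 11036 and 11387 counts, levels of 34.2 and 36.5 (0.09, 0.05 to 0.13). The ubiquitin ligase gene Syvn1, which encodes HRD1, had 1853 and 1881 counts, and its partner Sel1l had 9759 and 9774. Derl1 and Derl2, of the derlin family of the exit channel, had 4297 and 4082 counts and 2242 and 2245 counts. Derl3, a derlin of secretory cells, had 15 and 13 counts. In the folding and degradation groups together, 0 of 14 members over the minimum were 1.5-fold apart in either direction, whereas 7 of the 11 transcription factors and effectors over the minimum were lower by that size. These were 2 of 4 transcription factors and 5 of 7 effectors. The plan took each role singly, so the contrast between pooled roles only describes these same ratios. The other roles were in neither pool: 0 of 4 sensors and 1 of 7 synthesis enzymes were lower by that size. Of all genes 13.3% were lower and 9.67% higher by 1.5-fold, and the difference between these groups was not tested. The groups also differ in abundance: the effectors summed to 203 CPM with LPS alone and the folding genes to 3763.

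**Figure D4:**
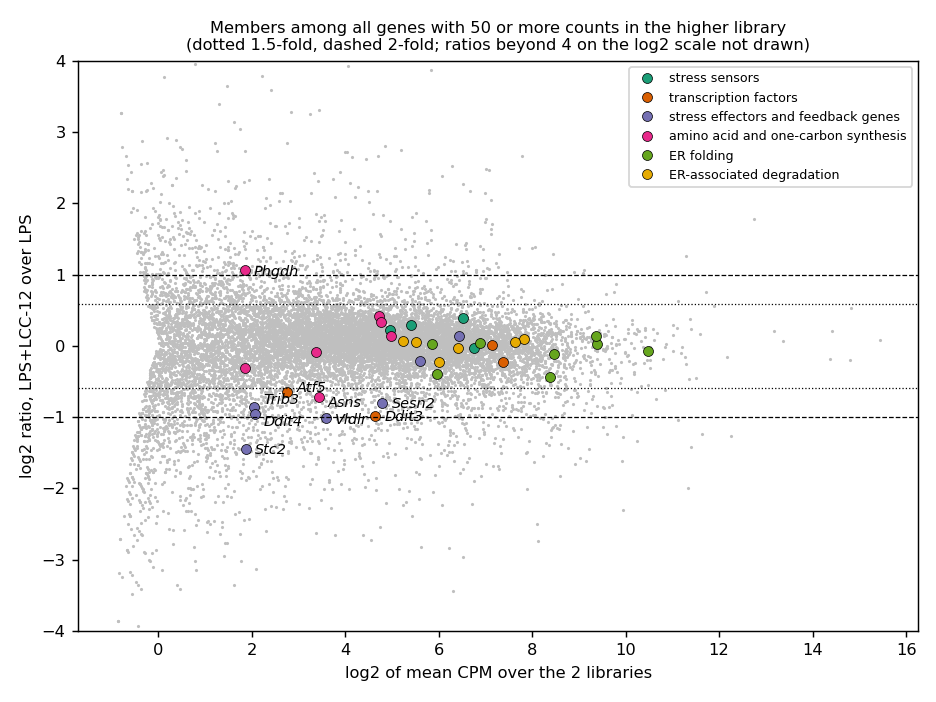
Log2 ratio against log2 of the mean CPM over the 2 libraries for all 13482 genes over the minimum (grey) and the 36 members over it (coloured by role), with lines at 1.5-fold and 2-fold; ratios beyond 4 are not drawn. The 9 labelled members are those past 1.5-fold, and they lie in the lower and middle range of CPM. Calr lies at the right near 0. The other folding genes reach down to 57.7 CPM with LPS alone (Sdf2l1), and their log2 ratios run from -0.44 (Pdia4) to 0.13 (Canx).

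Other genes of the same pathways were taken from lists of 137 genes, of which 129 were over the minimum. Among these, 4 were at least 1.5-fold lower (3.10%, against 13.3% of all genes) and 2 higher (1.55%, against 9.67%), both shares below the background, and the median was 0.10. ATF4 targets and partners outside the members had the lowest median of the lists, -0.24 over 11 genes, with 3 lower and none higher. Slc7a11, the cystine transporter that ATF4 and NRF2 both induce, had 6091 and 1928 counts, 3.06-fold lower (log2 ratio -1.61, -1.69 to -1.54). Jdp2, an AP-1 family partner of CHOP and ATF3, had 5666 and 3158 counts (-0.80, -0.86 to -0.73). Gpt2, a mitochondrial alanine transaminase, had 203 and 129 counts (-0.61, -0.94 to -0.28). Atf3, itself a common target of ATF4, had 2019 and 2085 counts (0.09, 0.00 to 0.18), so the lower ratios did not extend to every gene of the arm.

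The remaining lists were near level or slightly above it. For comparison, log2 ratios were above 0 for 7068 of all 13482 genes over the minimum, and for 6248 of the 11220 protein-coding ones. The 20 tRNA synthetase genes, many of them ATF4 targets, had a median of 0.12, with 16 above 0 and none 1.5-fold apart; Eprs and Gars, the most counted, had 0.13 and 0.15. Eif2ak2, which encodes PKR, the eIF2 kinase that senses double-stranded RNA and is induced by interferon, had 6728 and 3494 counts (log2 ratio -0.90, -0.96 to -0.84). It was the only gene past 1.5-fold of 12 in the list of eIF2 kinases and machinery, whose median was 0.07. Eif2ak1, which encodes the kinase for heme and mitochondrial stress, had 3789 and 3890 counts (0.08, 0.02 to 0.15), and Oma1, the mitochondrial protease upstream of it, had 1022 and 1036 (0.07, -0.06 to 0.19). The 10 mitochondrial chaperone and protease genes had a median of 0.09 and none was 1.5-fold apart, with Hspa9 and Hspd1 at 0.10 each.

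The 20 other ER folding genes had a median of 0.11, with 15 above 0. Hspa5, which encodes BiP, the chaperone that holds the sensors inactive, had 46229 and 45468 counts (log2 ratio 0.02, 0.00 to 0.04), and Hsp90b1 had 54991 and 48689 (-0.13, -0.15 to -0.11). Only Pdia5 of the 20, a disulfide isomerase, was 1.5-fold apart, with 133 and 248 counts (0.94, 0.64 to 1.26). The 23 translocon and secretory genes had a median of 0.22, with 20 above 0, and Dad1, a subunit of the oligosaccharyl transferase, was the only one 1.5-fold higher (681 and 1089 counts, 0.72, 0.58 to 0.86). The 11 other serine, folate and proline enzymes were at a median of 0.21, none 1.5-fold apart; Glul, glutamine synthetase and the most counted of them, had 11414 and 14190 counts (0.36, 0.32 to 0.40). Other transcription factors and proteases of the unfolded protein response had the highest median, 0.36 over 7 genes, with none 1.5-fold apart, and Mbtps1, the protease that cuts ATF6 first, had 3533 and 4474 counts (0.39, 0.32 to 0.45), while the ATF6 relative Atf6b had 3250 and 2627 (-0.26, -0.34 to -0.19). The 15 other degradation genes had a median of 0.02 (-0.01 with upper-quartile scaling), none was 1.5-fold apart, and Os9 and Vcp had -0.09 and 0.08.

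**Figure D5:**
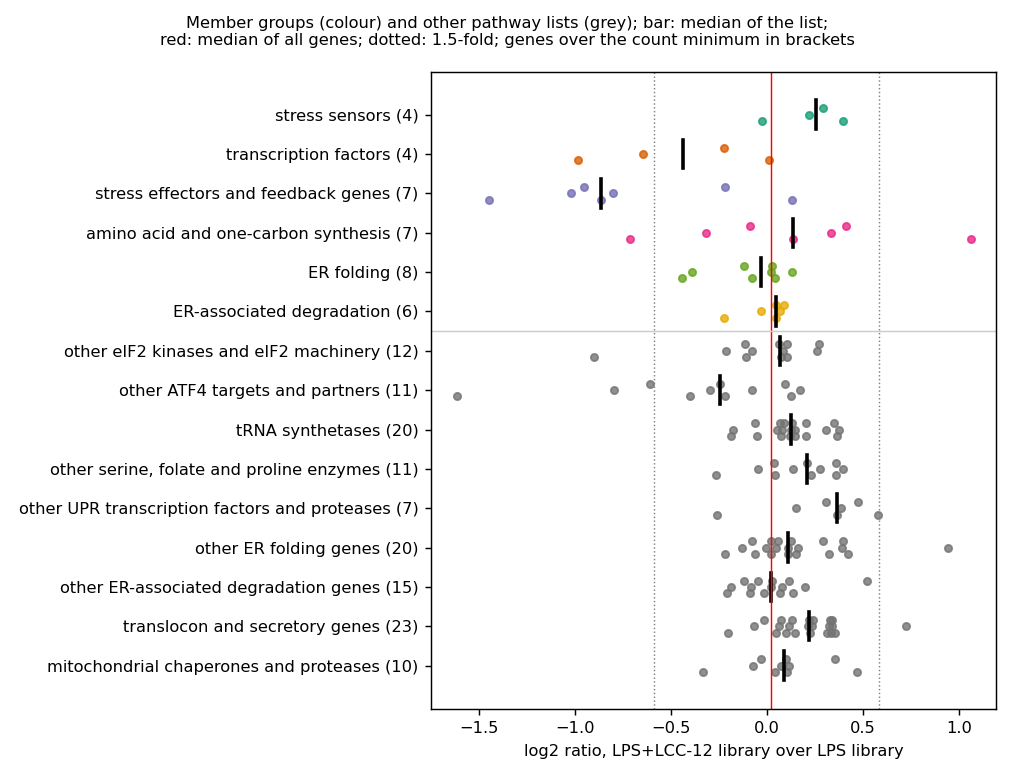
Log2 ratios of genes over the minimum in the 6 groups of members (coloured) and 9 other pathway lists (grey), with a bar at the median of each; a vertical line marks the median of all genes, 0.02. The effector group has the lowest median, -0.86, and the other ATF4 targets and partners are the lowest grey list at -0.24.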

How the data were processed

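One library per group was compared, LPS and LPS+LCC-12, each from pooled sorted cells. The values deposited by the authors are raw read counts for each gene ID, all whole and unscaled. Alignment with STAR to mm10 is named per the submitters' processing notes. How reads were counted, with which annotation and whether by strand, was not given in the sources used here. Libraries came from 10 ng of total RNA with a stranded kit and ribosomal depletion per the labels' protocols, although the molecule field names polyA RNA.

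Symbols, positions and merged exon lengths came from GENCODE M21 (GRCm38), which matched 55394 of 55487 gene IDs. The 93 others held 304 and 325 counts. Of 252 entries in the lists of members, pathway genes and markers all matched, 1 by a RefSeq synonym. Counts were scaled with TMM in edgeR 4.0.16 (R 4.3.3), with 0.5 added counts. Intervals are exact Clopper-Pearson intervals on the split of a gene's counts, and PCR copies are not independent molecules. Genes needed 50 counts in the higher library, and size limits were 1.5-fold and 2-fold. No test was possible with 1 library per group. The ratio and interval steps were tested on simulated data. All members are reported; those 1.5-fold apart and the 2 of highest level in each role are given in full. From the other lists, up to 4 genes past 1.5-fold are named, or else the 2 with most counts, and a few more (Atf3, Eif2ak1, Oma1, Hspa5, Hsp90b1, Mthfd1l, Mthfd2l) were named after their values were seen. 1 gene that this rule names is not reported here. Members and lists were chosen with earlier results of these data known. Alternatives were other scalings, including DESeq2 1.42.0 size factors, added counts, count minimums, interval-based limits and means.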

Additional observations from a re-analysis of the deposited data

How the results depend on the processing

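All 9 members past 1.5-fold stayed past it under each of the 4 other scalings and with 5 added counts. With the whole counting interval required beyond 1.5-fold, 6 passed, and Atf5, Asns and Trib3 did not. Of 116 alternative values of the group results, 107 stayed within the median counting interval of their genes or, for counts, within 1.5 times. Some of these values could not differ, so 107 of 116 overstates how stable the results were. A minimum of 200 counts kept the same 36 members, so the member values repeated the main ones. Minimums of 10 and 1 count both kept 39 members and gave the same member values as each other. A background of protein-coding genes only cannot change the number of members past 2-fold. The scalings moved the median of all genes by at most 0.06 on the log2 scale. Vldlr left the 2-fold limit when scaled by total counts, or by totals that leave out mitochondrial genes and the 100 of highest count, so 1 member was then 2-fold lower. In these alternatives the median log2 ratio of ER folding genes was 0.011 and 0.033 in place of -0.03. DESeq2 size factors and the upper quartile put Ddit3 past 2-fold, for 3 lower members. That was 8.33% of members, against 6.91% and 7.10% of all genes. The 1 lower member under total counts, or under totals with genes left out, was 2.78%, against 6.25% and 6.08% of all genes. With whole intervals required beyond 2-fold, 1 member (Stc2) passed in place of 3. The mean of the members was -0.17 where the median was -0.03, since the lower tail is longer. With minimums of 10 or 1 count, which add Pycr1, the median log2 ratio of amino acid and one-carbon synthesis enzymes was 0.024 in both cases, in place of 0.14. With a minimum of 1 count, 10 other pathway genes were past 1.5-fold in place of 6. Pdia3, Atf6, Atf4, Derl1 and Sdf2l1 changed sign with the scaling. No paired analysis was possible because each group had 1 library.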
